A study of Mus musculus with 8 samples.

Results

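The genes described here are 46 mouse genes of mitosis and cytokinesis, measured in astrocytes with and without an inflammatory cocktail. They were taken by symbol from a deposited table of 21878 genes, and all 46 were found in it. Astrocytes, glial cells that support neurons, came from brains of newborn (P0) wild-type C57BL/6 mice. Untreated cells had no addition, and treated cells were given IL-1α, TNFα and C1q, 2 cytokines and a complement protein that the design text names as the inducers of a C3d+ reactive state. Each group had 4 libraries. In 3 cocktail libraries the treatment label writes C1q with another digit, and the title set the group. The labels do not say whether the libraries came from separate cultures or animals, so the p-values measure the spread between libraries, which may be technical.

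Cells that divide switch on these genes together late in the cycle, in G2 and M phase. Cyclins A and B activate the kinase Cdk1 to start mitosis, Polo-like and Aurora kinases build the spindle, and kinetochore proteins tie chromosomes to it. A checkpoint holds back the ubiquitin ligase APC/C until every chromosome is attached. APC/C then releases separase and destroys the cyclins, and a midzone scaffold directs the cleavage of the cell. In resting cells the DREAM complex represses these genes, and in cycling cells the MuvB core, with B-MYB and FOXM1, activates them. This control is known to act through a promoter element called the cell cycle genes homology region (CHR), while the factor NF-Y binds CCAAT boxes nearby. Astrocytes of the newborn brain still divide, and most leave the cycle as the brain matures.

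Promoter stretches of 6 of the genes are shown because the genes moved together, and because the stretches differ in their matches to these elements. Each is the 150 bases just before a start that RefSeq gives (assembly GRCm38.p6), 5′ to 3′ on the strand of the gene. The start used for Top2a lies 10 bases inside the annotated gene, so the last 10 bases shown for it are part of the gene. Capitals mark matches to the CHR core, TTTGAA or on the other strand TTCAAA, and to the CCAAT box, which reads ATTGG on the other strand. Top2a, the topoisomerase that untangles chromosomes, is at chr11:99024190-99024339, minus strand. Ube2c, the ubiquitin-conjugating enzyme of APC/C, is at chr2:164769779-164769928, plus strand. Cdc20, an activator of APC/C, is at chr4:118437344-118437493, minus strand. Cdk1 is at chr10:69352913-69353062, minus strand. Cyclin B genes Ccnb1 and Ccnb2 are at chr13:100786487-100786636 and chr9:70421555-70421704, both minus strand.
Top2a: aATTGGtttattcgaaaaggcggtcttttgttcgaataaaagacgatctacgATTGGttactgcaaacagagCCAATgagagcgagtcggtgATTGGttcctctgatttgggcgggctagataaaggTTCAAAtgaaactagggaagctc
Ube2c: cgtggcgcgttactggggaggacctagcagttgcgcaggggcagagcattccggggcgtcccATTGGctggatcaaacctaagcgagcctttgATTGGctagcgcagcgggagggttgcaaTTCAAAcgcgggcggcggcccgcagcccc
Cdc20: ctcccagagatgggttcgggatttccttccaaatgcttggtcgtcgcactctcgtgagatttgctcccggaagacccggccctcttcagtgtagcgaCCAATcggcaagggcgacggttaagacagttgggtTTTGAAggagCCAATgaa
Cdk1: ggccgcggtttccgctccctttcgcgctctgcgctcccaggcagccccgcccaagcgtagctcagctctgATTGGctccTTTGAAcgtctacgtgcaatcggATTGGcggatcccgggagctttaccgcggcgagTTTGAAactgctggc
Ccnb1: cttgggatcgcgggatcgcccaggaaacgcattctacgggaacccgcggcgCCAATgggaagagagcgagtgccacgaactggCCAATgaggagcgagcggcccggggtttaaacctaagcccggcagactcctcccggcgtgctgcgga
Ccnb2: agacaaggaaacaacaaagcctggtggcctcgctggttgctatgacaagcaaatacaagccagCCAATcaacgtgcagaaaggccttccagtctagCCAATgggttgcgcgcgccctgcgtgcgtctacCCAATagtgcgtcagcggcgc
The stretch of Top2a holds 1 CHR and 4 CCAAT matches, that of Cdk1 holds 2 of each, and those of Ube2c and Cdc20 hold 1 CHR and 2 CCAAT matches. Those of Ccnb1 and Ccnb2 hold no CHR match and 2 and 3 CCAAT matches. Ccnb2 has CHR matches elsewhere in the window that was searched, and Ccnb1 has none there.

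Across the genes, 45 of 46 were lower in cocktail libraries by the test, none was higher, and Pttg1 was not called. The test was limma on log2(FPKM + 1), with a Benjamini-Hochberg adjusted p under 0.05 as the call. FPKM is fragments scaled to the length of the gene and the depth of the library, a scale on which genes can be compared. The count of higher genes was also 0 at an unadjusted p under 0.05 and with limma voom on recovered fragments. All 46 genes passed the filter on low values, at least 1 FPKM in at least 4 libraries, as did 11845 genes of the table. Of those 11845 genes, 41.1% were called lower and 26.6% were called higher. The mean FPKM fell at least 2-fold in 44 of the 46 genes, against 7.86% of all genes tested. In the same 45 called genes every cocktail library lay below every untreated library, which held for 38.5% of genes tested. The median log2 change was -1.27 over the 46 genes and -0.05 over all genes tested, and the median fold between group means was 2.86. Falls of at least 2.5-fold were seen in 34 genes, of at least 3-fold in 18, of at least 3.5-fold in 5 and of at least 4-fold in 1. In bulk RNA, fewer dividing cells and less RNA per dividing cell cannot be told apart.

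**Figure D1:**
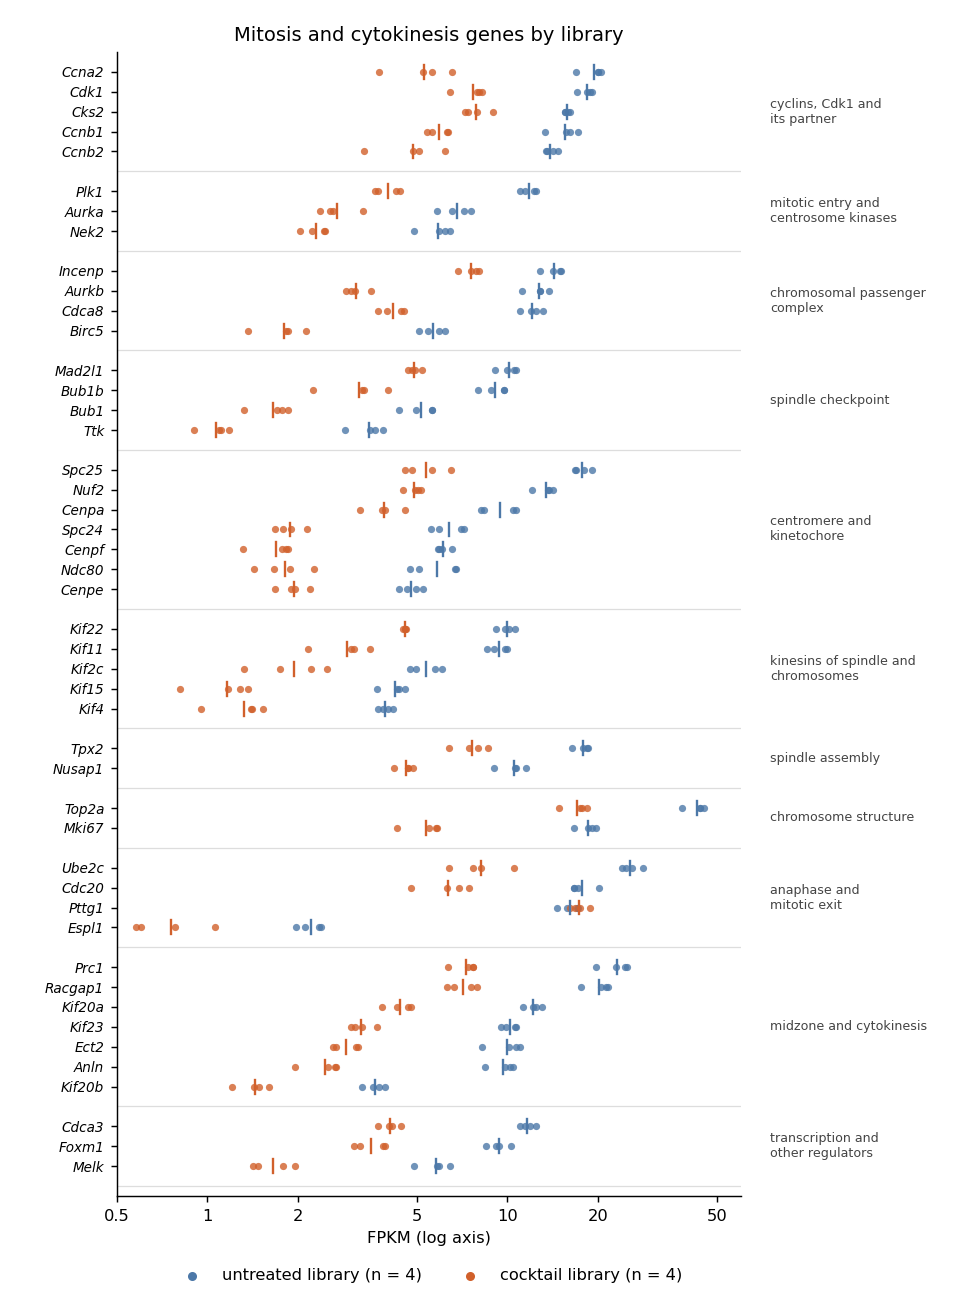
FPKM (log axis) of the 46 genes in each of 4 untreated (blue) and 4 cocktail (orange) libraries, grouped by role, with bars at the group means. The groups are apart for 45 genes and overlap for Pttg1.

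**Figure D2:**
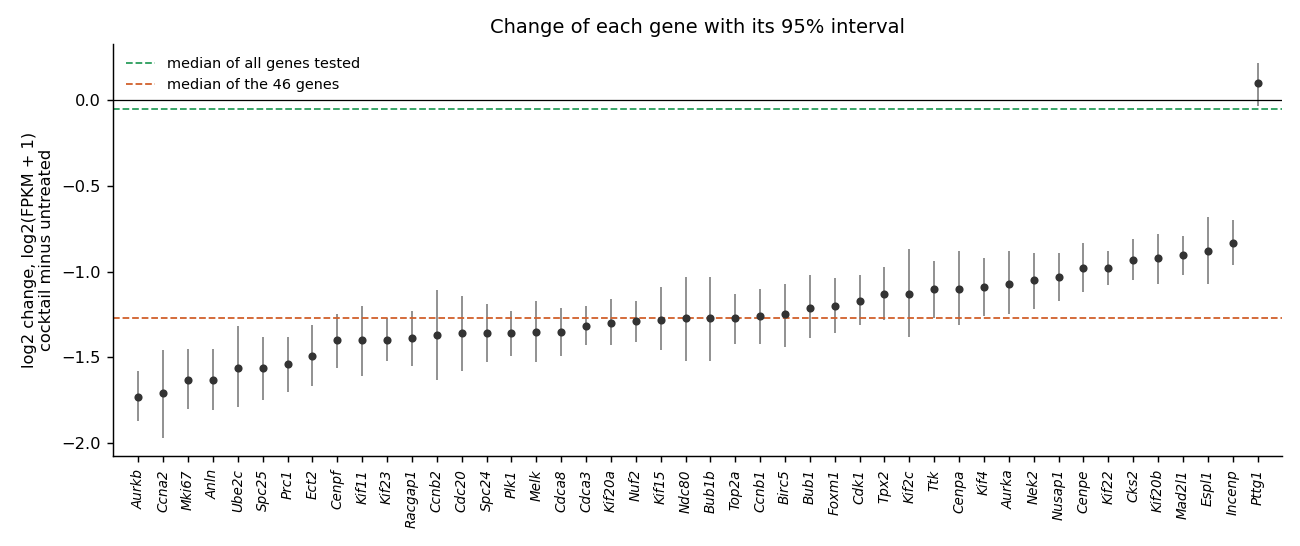
Change of each gene on the log2(FPKM + 1) scale, cocktail minus untreated, with the 95% interval of the limma fit, in order of the change. Aurkb is lowest at -1.73 and Pttg1 is highest at 0.10, apart from the rest, with the medians of all genes tested (-0.05) and of the 46 genes (-1.27) as dashed lines.

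All 5 genes of the Cdk1 and cyclin group fell. Ccna2, cyclin A2, which acts in S phase and at mitotic entry, was the most abundant of them in untreated cells. It measured 20.1, 16.9, 20.5 and 20 FPKM in untreated libraries 1 to 4, against 6.54, 5.62, 5.23 and 3.74 FPKM in cocktail libraries 1 to 4. Cocktail library 4 was lowest, and the groups lay far apart. The mean went from 19.4 ± 1.69 to 5.28 ± 1.17 FPKM (SD, n = 4 each), 3.67-fold lower, with a log2 change of -1.71 (SE 0.117, adjusted p = 8.3e-08). Cdk1, the kinase itself, fell from 18.4 ± 0.927 to 7.65 ± 0.824 FPKM, 2.4-fold. The B cyclins fell by similar folds, Ccnb1 from 15.6 ± 1.62 to 5.91 ± 0.484 FPKM (2.63-fold) and Ccnb2 from 13.9 ± 0.632 to 4.86 ± 1.18 FPKM (2.87-fold). Cks2, a small protein that binds Cdk1, was among the 5 genes with the smallest called falls by log2 change. It measured 16.2, 15.6, 15.6 and 15.9 FPKM in untreated libraries and 7.89, 8.95, 7.38 and 7.24 FPKM in cocktail libraries. No library of the groups overlapped, and the fall was 2.01-fold (log2 change -0.93, SE 0.055, adjusted p = 2.1e-08).

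All 3 kinases of mitotic entry and the centrosome fell. Plk1, the Polo-like kinase that acts at centrosomes and kinetochores, measured 12.3, 11.0, 11.4 and 12.4 FPKM in untreated libraries and 4.25, 4.37, 3.63 and 3.69 FPKM in cocktail libraries. Values were tight within each group, and the mean fell from 11.8 ± 0.656 to 3.99 ± 0.377 FPKM, 2.96-fold (log2 change -1.36, SE 0.059, adjusted p = 1.4e-09). Aurka, the Aurora kinase of spindle poles, fell 2.5-fold from 6.77 ± 0.763 FPKM. Nek2, which separates the centrosomes, fell 2.55-fold from 5.85 ± 0.677 FPKM.

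The chromosomal passenger complex corrects wrong attachments and later acts at the cleavage site. Its 4 genes fell unequally. Aurkb, the Aurora B kinase at its core, had the largest fall of the 46. It measured 12.8, 11.2, 13.8 and 12.8 FPKM in untreated libraries and 2.90, 3.5, 3.00 and 3.10 FPKM in cocktail libraries. The mean was 4.05-fold lower (12.7 ± 1.1 to 3.13 ± 0.259 FPKM, log2 change -1.73, SE 0.064, adjusted p = 3.5e-10). Incenp, the scaffold that binds and activates Aurora B, had the smallest called fall. It measured 14.2, 12.8, 15.1 and 15.0 FPKM in untreated libraries and 7.88, 7.55, 8.04 and 6.85 FPKM in cocktail libraries. The groups did not overlap, yet at 1.88-fold (log2 change -0.83, SE 0.059, adjusted p = 1.2e-07) it was the called gene under 2-fold. The ratio of Incenp to Aurkb FPKM within a library was 1.09 to 1.17 in untreated and 2.16 to 2.71 in cocktail libraries. Cdca8 (Borealin) fell 2.92-fold from 12.1 ± 0.862 FPKM, and Birc5 (Survivin) fell 3.15-fold from 5.65 ± 0.495 FPKM.

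Spindle checkpoint genes fell in 4 of 4 cases. Mad2l1, the Mad2 protein that binds Cdc20 and blocks APC/C, measured 10.5, 9.12, 10.7 and 9.94 FPKM in untreated libraries and 4.79, 5.21, 4.93 and 4.68 FPKM in cocktail libraries. Its fall of 2.05-fold (log2 change -0.90, SE 0.052, adjusted p = 1.9e-08) was among the 5 smallest by log2 change. Falls were 2.83-fold for Bub1b (BubR1, from 9.07 ± 0.856 FPKM), 3.09-fold for the checkpoint kinase Bub1 (from 5.14 ± 0.603 FPKM) and 3.24-fold for Ttk (the Mps1 kinase, from 3.46 ± 0.415 FPKM).

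All 7 centromere and kinetochore genes fell. The 4 subunits of the Ndc80 complex, which grips microtubules, are Ndc80, Nuf2, Spc24 and Spc25. Spc25 measured 16.9, 16.8, 18 and 19.1 FPKM in untreated libraries and 5.61, 4.82, 6.50 and 4.54 FPKM in cocktail libraries. Its fall was 3.3-fold (log2 change -1.56, SE 0.083, adjusted p = 9e-09), and the groups stood far apart. Falls of the other subunits were 2.75-fold for Nuf2, 3.21-fold for Ndc80 and 3.41-fold for Spc24. Within the complex the levels were unequal in both groups. Nuf2 stood 2.03 to 3 times above Ndc80 in untreated libraries and 2.17 to 3.12 times above it in cocktail libraries, and the ranges overlap. Cenpa, the centromeric histone, fell 2.43-fold from 9.42 ± 1.35 FPKM, and the kinetochore motor Cenpe fell 2.47-fold from 4.78 ± 0.383 FPKM. Cenpf, a large kinetochore protein, fell 3.6-fold from 6.1 ± 0.299 FPKM.

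Kinesins that move along or depolymerize microtubules fell in 5 of 5 cases. Kif22, a chromosome-arm motor, measured 10.6, 9.82, 9.18 and 10.1 FPKM in untreated libraries and 4.57, 4.49, 4.58 and 4.57 FPKM in cocktail libraries. Its cocktail values differed by less than those of any other of the 46 genes relative to their mean, and the fall was 2.18-fold (log2 change -0.98, SE 0.045, adjusted p = 2.5e-09). Kif11, the motor that pushes spindle poles apart, fell 3.19-fold from 9.34 ± 0.693 FPKM, and Kif15, which can take over part of that task, fell 3.63-fold from 4.21 ± 0.379 FPKM. Kif2c, a microtubule depolymerase, fell 2.76-fold, and the chromokinesin Kif4 fell 2.96-fold. Of the 2 spindle assembly genes, Tpx2, which activates Aurora A, measured 18.4, 16.4, 17.8 and 18.5 FPKM in untreated libraries and 8, 8.63, 7.46 and 6.40 FPKM in cocktail libraries. That was a 2.33-fold fall (log2 change -1.13, SE 0.072, adjusted p = 4.6e-08) with no overlap. Nusap1, which bundles spindle microtubules, fell 2.27-fold from 10.5 ± 1.02 FPKM.

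Both genes of chromosome structure fell. Top2a was the most abundant of the 46 genes in untreated cells, at 43.8, 38.1, 45.3 and 43.7 FPKM, and it measured 17.5, 18.4, 17.7 and 14.9 FPKM in cocktail libraries. Its mean fell from 42.7 ± 3.17 to 17.1 ± 1.52 FPKM, 2.5-fold (log2 change -1.27, SE 0.065, adjusted p = 6.2e-09). Mki67 encodes Ki-67, the coat protein of mitotic chromosomes that is used as a stain for cycling cells. It measured 18.6, 16.7, 19.7 and 19.1 FPKM in untreated libraries and 5.83, 5.79, 5.46 and 4.29 FPKM in cocktail libraries. The fall of 3.46-fold (log2 change -1.63, SE 0.079, adjusted p = 3.8e-09) was among the 5 largest by log2 change, a scale that shrinks the falls of less abundant genes, though not by fold.

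Of the 4 genes of anaphase and mitotic exit, 3 fell and Pttg1 did not pass the test. Ube2c measured 25.9, 24, 24.8 and 28.3 FPKM in untreated libraries and 10.5, 8.17, 7.65 and 6.40 FPKM in cocktail libraries. The groups were apart and the fall was 3.14-fold (log2 change -1.56, SE 0.107, adjusted p = 8.7e-08). Cdc20 fell 2.79-fold from 17.7 ± 1.66 to 6.34 ± 1.14 FPKM. Espl1, the protease separase that cuts cohesin, was the least abundant of the 46 in both groups. It measured 2.11, 1.97, 2.36 and 2.39 FPKM in untreated libraries and 0.58, 1.06, 0.78 and 0.60 FPKM in cocktail libraries. Cocktail values spread widely around a mean of 0.755 ± 0.223 FPKM, and the fall was 2.92-fold. Because the pseudocount of 1 shrinks the change of low genes, the log2 change was -0.88 (SE 0.087, adjusted p = 2.5e-06).

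Pttg1, securin, binds separase and holds it inactive until APC/C destroys it. It measured 17.0, 15.8, 17.2 and 14.6 FPKM in untreated libraries and 16.2, 18.9, 16.8 and 17.5 FPKM in cocktail libraries. The values of the groups overlapped, with means of 16.2 ± 1.18 and 17.3 ± 1.18 FPKM (SD, n = 4 each). The log2 change was 0.10 (SE 0.057, 95% interval -0.03 to 0.22, adjusted p = 0.15). With libraries rescaled by median ratios it was 0.16 with an adjusted p of 0.028, a call of higher. The interval lies wholly above those of the other 45 genes. Pttg1 was 6.12 to 8.05 times as abundant as its partner Espl1 in untreated libraries and 17.8 to 29.2 times in cocktail libraries. In cocktail libraries its mean was the highest of the 46 genes, but within the spread of that of Top2a (17.1 ± 1.52 FPKM). Top2a stood above it in cocktail libraries 1 and 3. In untreated libraries the means of Top2a, Ube2c, Prc1, Racgap1 and others were above that of Pttg1. Pttg1 rests on 2272 fragments in untreated and 2465 in cocktail libraries.

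All 7 midzone and cytokinesis genes fell. Prc1, which bundles the antiparallel microtubules of the midzone, measured 24.6, 19.8, 23.0 and 25 FPKM in untreated libraries and 7.38, 7.65, 7.67 and 6.34 FPKM in cocktail libraries. It fell 3.18-fold with no overlap (log2 change -1.54, SE 0.074, adjusted p = 3.2e-09). Kif23 and Racgap1 form centralspindlin, which recruits the exchange factor Ect2 to start the contractile ring. They fell 3.13-fold from 10.2 ± 0.574, 2.85-fold from 20.2 ± 1.82 and, for Ect2, 3.45-fold from 10 ± 1.24 FPKM. Anln, anillin, which links the ring to the membrane, measured 9.79, 8.39, 10.4 and 10.2 FPKM in untreated libraries and 2.69, 2.53, 2.66 and 1.96 FPKM in cocktail libraries. Its fall of 3.94-fold (log2 change -1.63, SE 0.080, adjusted p = 4.4e-09) was exceeded only by that of Aurkb in fold. The midzone motor Kif20a fell 2.79-fold from 12.2 ± 0.716 FPKM. Kif20b, a related motor, had one of the smallest log2 falls, at 3.57, 3.28, 3.90 and 3.74 FPKM in untreated and 1.61, 1.43, 1.49 and 1.21 FPKM in cocktail libraries. That was 2.52-fold with no overlap (log2 change -0.92, SE 0.065, adjusted p = 1.1e-07).

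The 3 remaining genes, of transcription and other regulation, fell as well. Cdca3, which helps degrade the mitotic inhibitor Wee1, measured 12.4, 11.0, 11.9 and 11.4 FPKM in untreated libraries and 4.03, 4.13, 4.41 and 3.71 FPKM in cocktail libraries. The groups were apart and tight, and the fall was 2.86-fold (log2 change -1.32, SE 0.052, adjusted p = 6.1e-10). Foxm1, the transcription factor of G2 and M phase genes, fell 2.66-fold from 9.34 ± 0.744 to 3.51 ± 0.431 FPKM. Melk, a kinase of cycling cells, fell 3.47-fold from 5.77 ± 0.639 FPKM. Another annotated gene overlaps 18 of the 46, among them Elovl1 at Cdc20, Exosc9 at Ccna2, Cstf1 at Aurka and Oip5 at Nusap1. Whether counting used strand is not given in the sources used here, so reads of overlapping genes cannot be told apart. The median fold of the 28 genes without such a neighbour was 2.92.

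The 46 genes together held 0.189, 0.167, 0.194 and 0.192% of all fragments in the untreated libraries, in order of number. In the cocktail libraries they held 0.0713, 0.0716, 0.0684 and 0.0575%. Untreated library 2 and cocktail library 4 were the low ones of their groups. Untreated library 2 was the lowest of its group in 41 of the 46 genes, against 26.9% of all genes tested, and cocktail library 4 in 37 of 46, against 25.9%. Within each group most of the genes were lowest in the same library. Their median coefficient of variation was 7.99% in untreated and 11.5% in cocktail libraries, where that of all genes tested was 4.58% and 5.03%. Depth was even, at 19195898 to 20640490 fragments a library, and a gene of the 46 rested on 49 (Spc24) to 4763 (Top2a) fragments in a library. In 9 genes at least 1 library had under 100 fragments, and counting error is then a larger part of the spread.

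**Figure D3:**
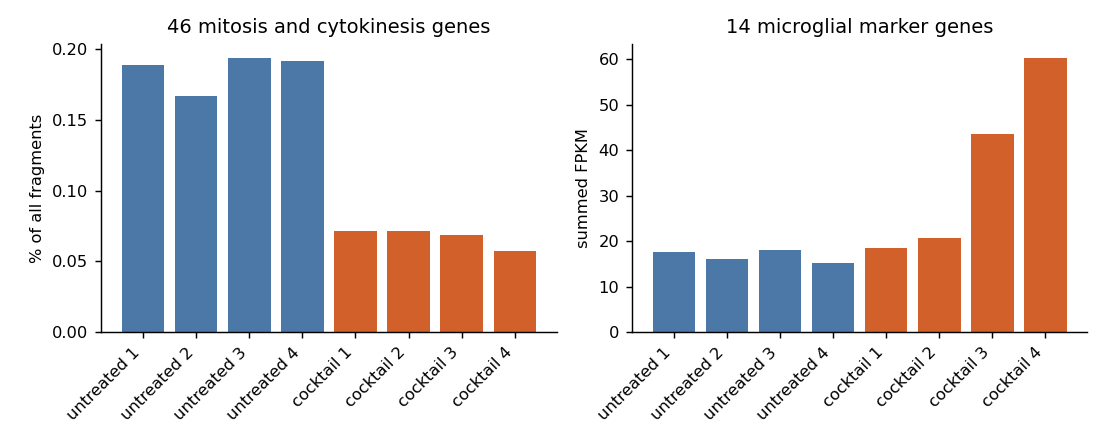
Left, share of all fragments (%) held by the 46 genes in each library. Right, summed FPKM of 14 microglial marker genes in the same libraries. The 46 genes are lowest in cocktail library 4 (0.0575%), where the microglial sum is highest (60.3 FPKM). Cocktail library 3 has 0.0684% and a sum of 43.6 FPKM. Cocktail libraries 1 and 2 have 0.0713 and 0.0716%, with sums of 18.5 and 20.8 FPKM. Untreated library 2, the lowest of its group (0.167%), has a sum of 16.1 FPKM. A link between share and sum was not tested.

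Markers of cell types were read in the same libraries, where 41.1% of all genes tested were called lower and 26.6% higher. Summed FPKM of 12 astrocyte markers was 3115 to 3595 in untreated and 2545 to 2574 in cocktail libraries, with 9 called lower and 2 higher. Apoe was the largest part of that sum and fell from 1813 ± 142 to 1324 ± 13.9 FPKM. The 2 called higher were Slc1a2, from 9.73 ± 0.579 to 52.3 ± 1.17 FPKM, and Aqp4, from 165 ± 4.43 to 253 ± 5.12 FPKM. The 14 microglial markers summed to 15.2 to 18 FPKM in untreated libraries and to 18.5, 20.8, 43.6 and 60.3 FPKM in cocktail libraries 1 to 4. Of the 8 tested, 5 were called higher and none lower (log2 changes 0.16 to 1.21), and Tmem119, P2ry12 and Ptprc were under 1 FPKM in every library. Against cocktail libraries 1 and 2 alone, where the sums are near the untreated range, the median fold of the 46 genes was 2.66 and 43 were at least 2-fold lower. Against cocktail libraries 3 and 4 alone these were 3.17 and 44, and without cocktail library 4 they were 2.72 and 43.

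Summed levels of the other marker lists were lower in cocktail libraries, but each sum rests on a few abundant genes, and 4 of the 6 lists also held a gene that was called higher. The markers named with values were chosen after these were seen. Counts of calls stand beside shares of 41.1% called lower and 26.6% called higher over all genes tested. The sum of 10 oligodendrocyte lineage markers went from 212 to 226 FPKM in untreated to 123 to 127 FPKM in cocktail libraries (4 of 6 tested called lower, 1 higher). In that list Sox10, Mbp, Mog and Mag were under 1 FPKM throughout, and Mog was at 0. Olig1 fell from 139 ± 4.14 to 74.8 ± 2.76 FPKM, while Pdgfra rose from 0.934 ± 0.111 to 3.07 ± 0.155 FPKM. Neuronal markers summed to 140 to 158 against 52.5 to 59.8 FPKM (2 of 4 lower, 1 higher), with Rbfox3, Snap25, Dcx, Slc17a7 and Nefl under 1 FPKM. Most of that sum was Stmn2, which fell from 125 ± 6.7 to 38.8 ± 2.89 FPKM, while Gad1 rose from 1.11 ± 0.124 to 3.21 ± 0.291 FPKM. Ependymal markers summed to 130 to 145 against 73.7 to 87.1 FPKM (4 of 4 lower), with Tmem212 under 1 FPKM, and most of it was Foxj1 (116 ± 5.63 to 70.9 ± 5.44 FPKM). Neural progenitor markers summed to 282 to 296 against 189 to 203 FPKM (3 of 4 lower, 1 higher), with Eomes and Neurog2 under 1 FPKM. Nes fell from 138 ± 2.35 to 59.5 ± 2.34 FPKM. Fibroblast and meningeal markers summed to 187 to 218 against 139 to 174 FPKM (5 of 9 lower, 2 higher), with Fap under 1 FPKM. In that list Lum rose from 0.237 ± 0.0631 to 7.69 ± 1.03 FPKM and Dcn from 1.45 ± 0.146 to 8.31 ± 2.58 FPKM. By group mean, Col1a1 fell from 48.8 to 34.4, Col1a2 from 53.7 to 32.1 and Thy1 from 53.7 to 36.7 FPKM. The other 2 called lower were Pdgfrb (20.4 to 16.4 FPKM) and Twist1 (8.95 to 3.06 FPKM). Of 8 endothelial markers, 7 were under 1 FPKM throughout, Cldn5 at 0 among them. Their sum was 5.09 to 5.54 against 1.63 to 2.09 FPKM, and the difference was that of Kdr, the only member tested, which fell from 3.99 ± 0.12 to 0.616 ± 0.0686 FPKM. Kdr, Ccdc153 of the ependymal list and S100b of the astrocyte list passed the filter on low values through the untreated libraries alone. Ccdc153 and S100b are among the genes counted as lower in their lists. Lum passed through the cocktail libraries alone. The part of these cell types in the fall of the 46 genes was not tested.

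Other genes of the mitotic machinery, listed by role but with earlier results of these data known, gave a mixed picture by complex. Of 157 tested, 116 were called lower, 12 higher and 29 neither, and 57 fell at least 2-fold, with a median log2 change of -0.52. Some of them, under 1 FPKM in every cocktail library, passed the filter on low values through the untreated libraries alone. With no filter, 121 were called lower and 11 higher. Over all genes tested with the filter, the shares were 41.1% lower, 26.6% higher and 7.86% at least 2-fold lower. Kinetochore and centromere genes fell in 29 of 33 cases (17 at least 2-fold, median log2 change -0.70). Cenph, of the inner kinetochore, went from 4.38 ± 0.791 to 1.31 ± 0.283 FPKM. Spindle and kinesin genes fell in 25 of 27 cases and rose in 2 (17 at least 2-fold lower, median -0.84). The spindle proteins Ckap2l (11.5 ± 1.41 to 3.52 ± 0.538 FPKM) and Hmmr (7.8 ± 0.463 to 2.5 ± 0.321 FPKM) led the falls. The rises were Numa1, which gathers microtubules at spindle poles, from 31.7 ± 0.449 to 36.1 ± 0.75 FPKM, and Psrc1, from 37.8 ± 2.77 to 42.2 ± 2.48 FPKM with overlapping groups. The call of Psrc1 was lost when any of 4 libraries was left out, at an adjusted p of 0.056 without cocktail library 2 or untreated library 1, and of 0.068 without cocktail library 1 or untreated library 2. Entry and exit regulators fell in 17 of 18 cases (11 at least 2-fold, median -0.77), among them Fbxo5 (Emi1, an APC/C inhibitor), from 5.52 ± 0.168 to 1.56 ± 0.334 FPKM, and Fam64a, from 12.3 ± 0.838 to 4.08 ± 0.561 FPKM.

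Median changes were smaller in the lists of condensin and cohesin, APC/C and other cytokinesis genes, a difference that was not tested. Condensin and cohesin genes fell in 15 of 20 cases and rose in 1 (6 at least 2-fold lower, median log2 change -0.28). Esco2, which acetylates cohesin in S phase, went from 6.48 ± 0.454 to 1.78 ± 0.174 FPKM and the condensin II subunit Ncapg2 from 6.74 ± 0.602 to 2.11 ± 0.224 FPKM, while the cohesin subunit Stag1 rose from 11.2 ± 0.0715 to 12.6 ± 0.572 FPKM. Of 16 APC/C genes 7 fell, 1 rose and none changed 2-fold (median -0.08). For falls that is near the 41.1% of all genes tested that were called lower, where 26.6% were called higher. Among those that fell were the conjugating enzyme Ube2s (52.8 ± 3.91 to 40.0 ± 1.84 FPKM) and the subunit Anapc15 (3.19 ± 0.0868 to 2.17 ± 0.253 FPKM). Anapc7 was the rise, from 21.4 ± 1.17 to 23.0 ± 0.629 FPKM with overlapping groups and an adjusted p of 0.048, which reached 0.14 without untreated library 2. Leaving out any cocktail library (adjusted p 0.056 to 0.13) or untreated library 3 (0.11) lost that call too. Other cytokinesis genes fell in 9 and rose in 5 of 21 cases (2 at least 2-fold lower, median -0.09), near both shares of all genes tested, and these counts are no result about the list. Cep55, a midbody scaffold that recruits the machinery of abscission, went from 5.41 ± 0.451 to 1.71 ± 0.171 FPKM and the kinase Rock2 from 37.1 ± 1.45 to 18.7 ± 0.0927 FPKM. Mkl1, a cofactor of actin-responsive transcription, rose from 7.66 ± 0.515 to 9.5 ± 0.349 FPKM, and Zfyve26 rose from 4.68 ± 0.264 to 5.81 ± 0.108 FPKM.

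The genes of DREAM, MuvB, MYB and E2F transcription fell in 14 and rose in 3 of 22 cases (4 at least 2-fold lower, median log2 change -0.20). Over all genes tested, 41.1% were called lower, 26.6% higher and 7.86% lower at least 2-fold, with a median of -0.05. E2f8, an E2F repressor that is itself made in S phase, went from 4.7 ± 0.389 to 1.18 ± 0.116 FPKM, and Mybl1 (A-MYB) from 11.5 ± 0.631 to 5.57 ± 0.381 FPKM. E2f3 rose from 6.38 ± 0.37 to 7.44 ± 0.345 FPKM and E2f4, the E2F of DREAM, from 14.7 ± 0.833 to 16.4 ± 0.297 FPKM. Mybl2 (B-MYB), named here after its values were seen, fell from 1.99 ± 0.288 to 0.622 ± 0.0268 FPKM. Like E2f7 of the same list, Mybl2 passed the filter on low values through the untreated libraries alone.

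DNA replication genes, which act in S phase, fell in 38 of 38 cases, 26 of them at least 2-fold. Some of these also passed the filter through the untreated libraries alone, and with no filter 39 were called lower. Their median log2 change was -0.97 and their median fold 2.29, against -1.27 and 2.86 for the 46 genes of mitosis. The falls were led by the nucleotide enzymes Rrm2, from 48.9 ± 4.31 to 13.9 ± 2.64 FPKM, and Tk1, from 8.94 ± 0.32 to 2.79 ± 0.425 FPKM. Of 15 G1 cyclins, their kinases and inhibitors, 10 fell, 1 rose and 4 were not called (median -0.36). Over all genes tested, 41.1% were called lower and 26.6% higher, with a median of -0.05. With median-ratio scaling, 8 of the 15 were called lower and 3 higher, where 4118 and 4088 of all 11845 genes were. Cdkn2b, the p15 inhibitor of Cdk4 and Cdk6, rose from 58.4 ± 1.03 to 149 ± 6.22 FPKM, 2.55-fold, with no overlap. Another inhibitor, Cdkn1c (p57), fell 6.49-fold from 15.2 ± 1.37 to 2.34 ± 0.701 FPKM, and the G1 cyclin Ccne2 fell 3.25-fold from 4.28 ± 0.502 to 1.31 ± 0.36 FPKM. Cyclin D1 and the p21 inhibitor, named after their values were seen, were not called. Ccnd1 measured 321 ± 31.8 and 345 ± 50 FPKM (adjusted p = 0.38), and Cdkn1a measured 153 ± 9.34 and 161 ± 9.76 FPKM (adjusted p = 0.23). Against cocktail libraries 1 and 2 alone both were called higher, Ccnd1 at an adjusted p of 0.0098 and Cdkn1a at 0.024, and Cdkn1a was also called higher with median-ratio scaling (adjusted p = 0.037).

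**Figure D4:**
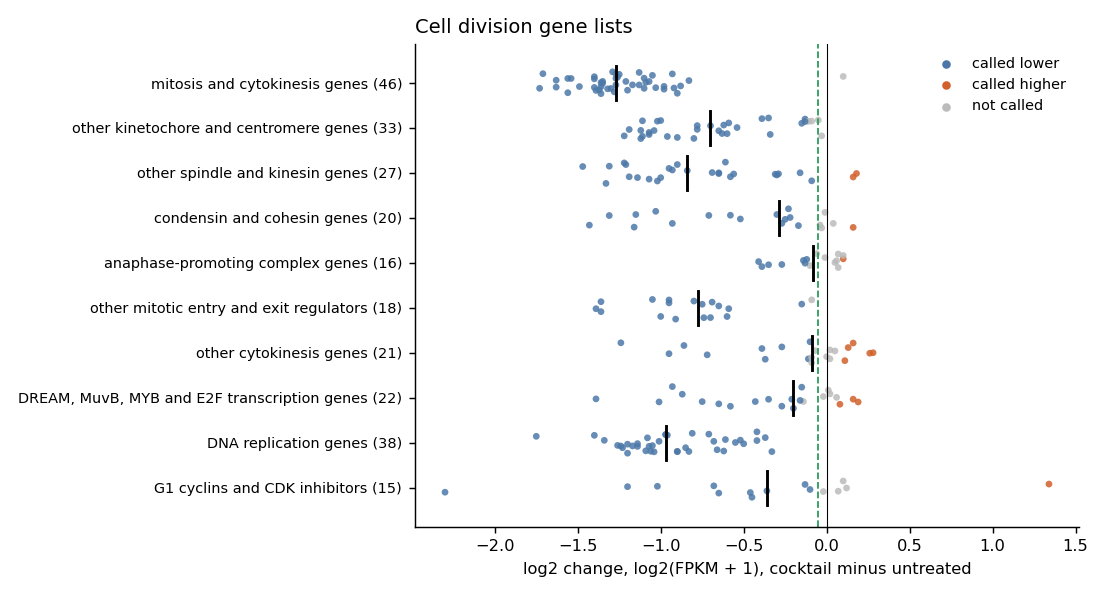
Log2 change (log2(FPKM + 1), cocktail minus untreated) of each tested gene in the 46 genes and in 9 other lists, with the number tested in brackets, genes called lower in blue, higher in orange and not called in grey, list medians as black bars and the median of all genes tested as a dashed line. Medians run from -1.27 for the 46 genes and -0.97 for DNA replication to -0.08 for APC/C.

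Promoter windows were read for 39 of the 46 genes, in 41 windows from 250 bases before to 50 bases after a RefSeq start. The CHR core TTTGAA, on either strand, was in 30 of 41 windows (73.2%), in 17.9% of all 32851 windows of the same length and in 11.5% of windows of genes tested. CCAAT on either strand was in 73.2% of the 41, in 37.4% of all and in 37.9% of those of tested genes. Matches of the 2 motifs can share an end base. At least 2 CCAAT matches were in 51.2% of the 41 and in 11.7% of all windows, and CHR with at least 2 CCAAT in 41.5% and in 2.09%. Of 40 CHR matches, 30 lay within 50 bases of the start, and of 69 CCAAT matches 46 lay in the 100 bases before it. Positions were not counted over all windows. Ect2 and Prc1 each have overlapping windows, so their sites are counted again. The 46 genes are textbook examples of such promoters, so the shares describe a known feature of the list.

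Neither motif was in the windows of Birc5, Mad2l1, Melk, Nuf2, Nusap1 and Pttg1, of which 5 fell and Pttg1 did not. The window of Pttg1 begins at a start 1482 bases inside the annotated gene, and that of Kif2c at one 3852 bases inside. Windows of Cdca3 (646 bases), Ect2 (399 and 375) and Aurka (316), which hold both motifs, also belong to starts inside the gene. Other starts of these genes were not read. No match says only that the letters are not in the window.

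**Figure D5:**
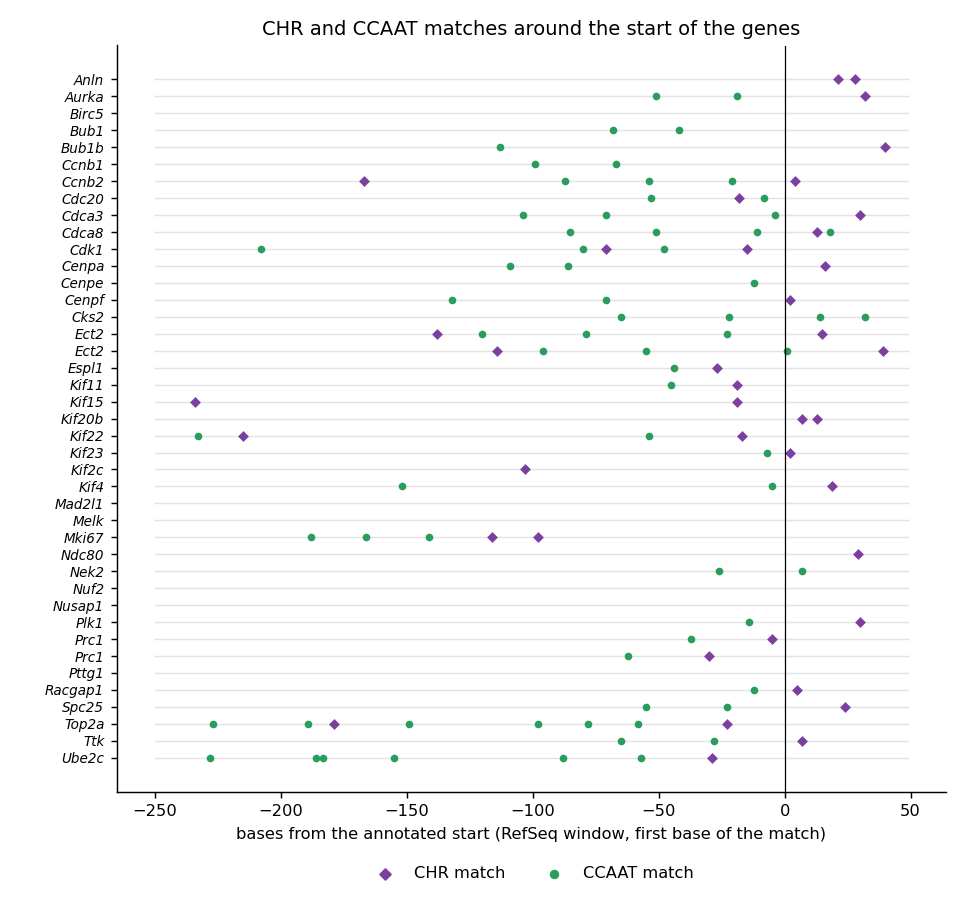
Positions of CHR (purple diamonds) and CCAAT (green circles) matches in 41 windows of 39 genes, in bases from the annotated start. Of 40 CHR matches 30 lie within 50 bases of the start, and of 69 CCAAT matches 46 lie in the 100 bases upstream. The overlapping windows of Ect2 and of Prc1 show the same sites again.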

How the data were processed

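RNA of 8 libraries, 4 untreated and 4 cocktail, was isolated with TRIzol and made into libraries with a TruSeq stranded mRNA kit, per the labels' protocols. The authors deposited FPKM values for 21878 genes. DESeq and the build mm10 are named in the submitters' processing notes, without a role. For the aligner and the counter, nothing is given in the sources used here. Groups and replicate numbers came from the titles.

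The 11845 genes that reached 1 FPKM in 4 or more libraries were tested with limma 3.58.1 in R 4.3.3. The values were log2(FPKM + 1), and the fit used a trend of variance on mean level, without covariates. Two-sided p-values were adjusted by Benjamini-Hochberg over all genes tested, and 0.05 was the threshold. Folds are ratios of group means of FPKM. Log2 changes understate the change of low genes. For 16557 genes above 0 in at least 2 libraries, the FPKM of a gene times the library total gave whole multiples of a common unit (tolerance 1e-11), which gave fragments per gene and library totals of 19195898 to 20640490. The fits were tested on simulated data.

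The members and the lists were chosen with earlier results of these data known. Values in every library are given for the most abundant gene of each role, the 5 largest and 5 smallest falls by log2 change, and any gene not called. Of each other list, up to 2 called genes with the largest falls and up to 2 with the largest rises are named, where the higher group mean was at least 2 FPKM. A gene that this rule names is not reported here. Positions and promoters came from RefSeq (GRCm38.p6), matched by NCBI gene number for 46 of 46 genes. Alternatives were a pseudocount of 0.1, no filter, median-ratio scaling, voom on the recovered fragments, a replicate block, each library left out, and cocktail libraries 1 and 2, or 3 and 4, left out.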

Additional observations from a re-analysis of the deposited data

Results flagged for a closer look

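Among 92 groups of 4 libraries (46 genes, 2 groups), 2 held a library far from the other 3, where chance alone gives about 5% of groups. Ccna2 was 16.9 FPKM in untreated library 2, while the others lay between 20 and 20.5 FPKM. The gap was 0.861 of the group's range, above the 95% critical value of Dixon's test. Cdc20 was 20.2 FPKM in untreated library 4, while the others lay between 16.7 and 17.2 FPKM, a gap of 0.872 of the range. Each cocktail value of these genes lay below each untreated value, with or without these libraries.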

How the results depend on the processing

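Under every alternative run, 45 of the 46 genes were called lower, and 42 to 44 were called at least 2-fold lower, 42 with median-ratio scaling. Of 690 log2 changes (46 genes in 15 alternatives), 689 kept their direction and their side of the threshold. The exception was Pttg1 with median-ratio scaling, which made 1 gene called higher. That scaling moved the median log2 change of all genes from -0.050 to 0.006 and the rises among calls from 39.3% to 49.8% (4088 rises and 4118 falls, where the deposited scale gave 3151 and 4872). It raised the count of other mitotic genes called higher from 12 to 20 and of G1 genes called higher from 1 to 3. The latter count was 4 without cocktail libraries 3 and 4. Without cocktail libraries 1 and 2 the log2 changes of Ccnd1 (-0.07) and Cdkn1a (-0.0047), neither called, changed sign, and the cause was not tested. Of 600 log2 changes of 40 genes of the other lists, 581 kept direction and side.

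The median log2 change of the 46 genes ran from -1.54 (voom on recovered fragments, 4909 genes called lower and 3164 higher) to -1.20 (without cocktail libraries 3 and 4). With the replicate block, 45 of the 46 genes were called lower and 4829 genes in all. The block changed no call of the 46 genes. Deviations of libraries with the same number correlated at -0.0438, 0.0784, 0.0859 and -0.00706. Untreated libraries 2 and 3 correlated best with the cocktail library of their own number, and untreated libraries 1 and 4 did not. These correlations cannot show whether libraries of the same number share a culture, which the labels do not say. The libraries were not treated as paired. Depth limits Spc24 most, at 49 fragments in its lowest library.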
